A study of Homo sapiens with 2 samples.

Results

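Receptor tyrosine kinase genes outside the EGFR family, 10 in number, were followed in 468 breast cancer cells after knockdown of the antisense RNA THAP7-AS1: MET, MST1R, AXL, INSR, IGF1R, EPHA2, EPHB2, EPHB4, DDR1 and FGFR1. They were taken by symbol from the deposited gene tables, and all 10 were found among 13017 listed genes. The 2 libraries were 1 of cells transfected with a Smart Silencer, a blend of oligonucleotides sold for gene silencing, against THAP7-AS1 and 1 of cells given the control si-NC, both of the epithelioid line called 468 in the labels, grown in L15 medium with 10% serum and sampled at 48 h. Both samples carry the silencer in their treatment label, so the groups rest on the genotype label. With 1 library per group there was no replicate and no test, and each difference below is one between these 2 libraries. In RNA from whole cultures, fewer cells with a transcript and less of it per cell cannot be told apart.

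Receptor tyrosine kinases span the cell membrane once or as a linked dimer. A ligand binding outside brings kinase domains together inside, the receptors phosphorylate one another on tyrosines, and adaptors such as GRB2 and SHC1 dock there and pass the signal to the RAS and PI3K pathways. MET binds hepatocyte growth factor and MST1R (RON) binds its relative macrophage-stimulating protein, the product of MST1. AXL binds GAS6, INSR and IGF1R bind insulin and the insulin-like growth factors, the EPH receptors bind membrane-held ephrins on neighbouring cells, DDR1 binds collagen, and FGFR1 binds fibroblast growth factors. In breast cancer cells these receptors are known as possible parallel routes to the signals of EGFR.

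The receptors have closely similar peptide sequences at the catalytic loop, the stretch of the kinase domain that holds the aspartate used in phosphate transfer. Its 8 codons are shown for 9 of the genes, to let the likeness between members be seen and to show where their reads could be confused. They run 5′ to 3′ on the coding strand, from the principal transcripts of GENCODE release 29, and capitals mark the 13 of 24 bases that are identical in all 9. Each stretch was found by searching the translated transcript for the peptide HRDLAARN or HRDLATRN. Most of the bases in capitals are therefore set by the search, which also raises the identity between pairs.
MET (chromosome 7, exon 18 of 21): CAcaGaGACtTgGCtgCaaGaAAc
MST1R (chromosome 3, exon 17 of 20): CAcaGgGACcTgGCtgCgcGgAAc
AXL (chromosome 19, exon 17 of 20): CAccGgGACcTgGCggCcaGgAAc
INSR (chromosome 19, exon 19 of 22): CAtcGgGACcTgGCagCgaGaAAc
IGF1R (chromosome 15, exon 18 of 21): CAcaGaGACcTtGCtgCccGgAAt
EPHA2 (chromosome 1, exon 13 of 17): CAccGtGACcTgGCtgCccGcAAc
EPHB2 (chromosome 1, exon 12 of 16): CAccGtGACcTgGCtgCccGcAAc
EPHB4 (chromosome 7, exon 13 of 17): CAccGaGACcTgGCtgCtcGcAAc
DDR1 (chromosome 6, exon 19 of 21): CAtcGgGACcTgGCcaCgcGgAAc
Between pairs of these genes, 15 to 24 of the 24 bases were identical, and EPHA2 and EPHB2 were identical at all 24. Longer identical stretches were rare. Of all stretches of 50 bases in the principal transcript, EPHA2 and EPHB2 had 10 in common with each other, 0.255% and 0.276% of their stretches. No other pair of the 10 genes had a stretch of 50 bases in common. IGF1R, INSR and DDR1 shared none with any other annotated gene, and the largest share, 3.54% in MST1R, was held in common with AC105935.2, a transcript annotated on the opposite strand.

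The tables give FPKM, fragments scaled by gene length and library size, so levels may be ordered between genes within a library. From the lowest values in the tables, the depth was estimated at 11100000 fragments in knockdown cells and 10900000 in control cells. The FPKM values summed to 213442 and 213888. THAP7-AS1 itself is not analysed here, and THAP7, which overlaps it on the opposite strand, was at 8.38 FPKM in knockdown cells against 2.71 in control cells. The 7 breast epithelial markers sought were all listed, with summed levels of 1870.2 and 1764.4 FPKM, of which KRT19 alone gave 1110 and 1060. Of the 7, 6 were higher in knockdown cells, as were 53.1% of all genes averaging 1 FPKM or more. CDH1 was lower, at 12.4 FPKM in knockdown cells against 17.1 in control cells. Fibroblast markers summed to 0.9 FPKM in each library, no endothelial marker was listed, and of the blood cell markers CD14 alone was listed, at 10.3 and 9.5 FPKM.

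None of the 10 receptors differed by 1.5-fold between the libraries. Their log2 ratios of knockdown over control, computed after adding 1 FPKM to each value, ran from -0.18 for FGFR1 to 0.18 for DDR1, with 6 above 0 and 4 below. The median was 0.02, which is also the median over all 10925 genes averaging 1 FPKM or more. Among those genes 5.45% were at least 1.5-fold apart, so that a count of 0 of 10 is near the background share. At 2-fold the share was 1.27%, and the count of 0 of 10 follows from that at 1.5-fold. The median size of the log2 ratio, sign ignored, was 0.05 over the receptors and 0.14 over all genes, and 8 of the 10 receptors lay below that median.

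**Figure D1:**
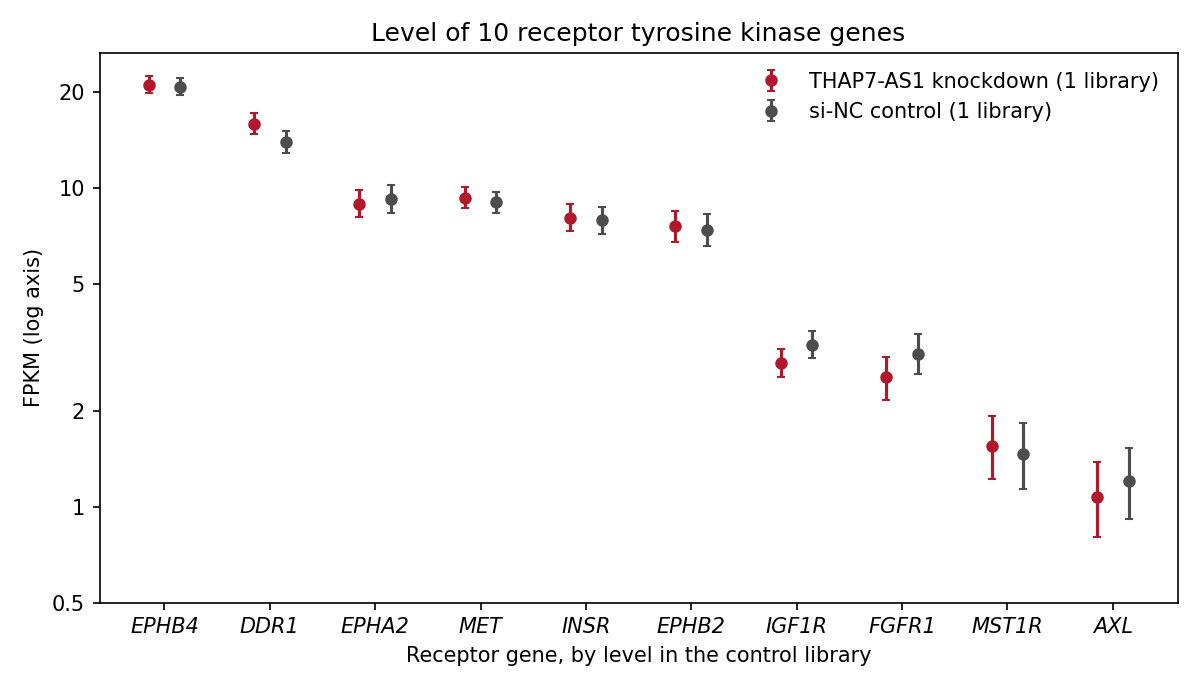
FPKM of the 10 receptor genes (log axis) in the library of THAP7-AS1 knockdown cells (red) and that of si-NC control cells (grey), ordered by the control level; bars are 95% Poisson intervals from estimated fragments and cover counting error only. EPHB4 stands highest at 21.1 and 20.8 FPKM and AXL lowest at 1.07 and 1.20, and the bars of the libraries overlap for every receptor.

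Of the EPH receptors, which take part in contact signalling between cells, EPHB4 was the most abundant of the 10 genes, at 21.1 FPKM in knockdown cells and 20.8 in control cells, a log2 ratio of 0.02. That placed it at rank 1935 and 1957 of all listed genes, in the top 14.9% and 15.0%. EPHA2, a receptor for A-type ephrins, was at 8.95 FPKM in knockdown and 9.27 in control cells. EPHB2, a receptor for B-type ephrins, was at 7.60 against 7.37 FPKM. The libraries were thus close for all 3, with log2 ratios of 0.02, -0.05 and 0.04. The level of EPHB4 was 2.78 times that of EPHB2 in knockdown cells and 2.83 times in control cells, and 2.36 and 2.25 times that of EPHA2. EPHB4 has 21 of its stretches of 50 bases in common with SLC12A9, an antisense neighbour listed at 1.81 and 1.60 FPKM.

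MET, the receptor of hepatocyte growth factor, was at 9.33 FPKM in knockdown cells and 9.02 in control cells, at rank 4306 and 4418 of all listed genes. MST1R was much lower, at 1.55 against 1.46 FPKM, ranks 10152 and 10175. The level of MET was thus 6.02 times that of its closest relative in knockdown cells and 6.19 times in control cells. Both genes had small log2 ratios, 0.04 for MET and 0.05 for MST1R. About 78 and 72 fragments are estimated to lie behind the values of MST1R, and its antisense transcript could add to them, since the strandedness of the libraries is not given in the sources used here.

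DDR1, a receptor for collagen that is widespread in epithelia, ranked second among the 10 genes. It was at 15.9 FPKM in knockdown cells and 14.0 in control cells, a log2 ratio of 0.18 and the highest of the set. The value was higher in knockdown cells, but 41.1% of all genes had a larger ratio in either direction. Its level was 1.71 times that of MET in knockdown cells and 1.55 times in control cells. DDR1 overlaps the microRNA gene MIR4640 within its own exons, and no long gene shares its exons.

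The insulin receptor gene INSR was at 8.09 FPKM in knockdown cells and 7.93 in control cells, a log2 ratio of 0.03. IGF1R, which encodes the receptor of insulin-like growth factor 1, was at 2.83 against 3.23 FPKM, a log2 ratio of -0.14. INSR stood above IGF1R in both libraries. The ratio of their levels was 2.86 in knockdown cells and 2.46 in control cells. IGF1R was at rank 8578 in knockdown and 8080 in control cells, and 50.3% of all genes had a larger ratio in either direction.

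FGFR1 was at 2.55 FPKM in knockdown cells and 3.02 in control cells, a log2 ratio of -0.18 and the lowest of the set. Of all genes, 40.8% had a larger ratio in either direction. AXL, of the TAM family of receptors, which is known for the clearance of dying cells, was the least abundant, at 1.07 against 1.20 FPKM and a log2 ratio of -0.09. AXL lay low among the listed genes in both libraries, at ranks 10841 and 10541. FGFR1 overlaps exons of the antisense neighbour LETM2, at 1.32 and 1.48 FPKM, and AXL those of an antisense transcript.

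**Figure D2:**
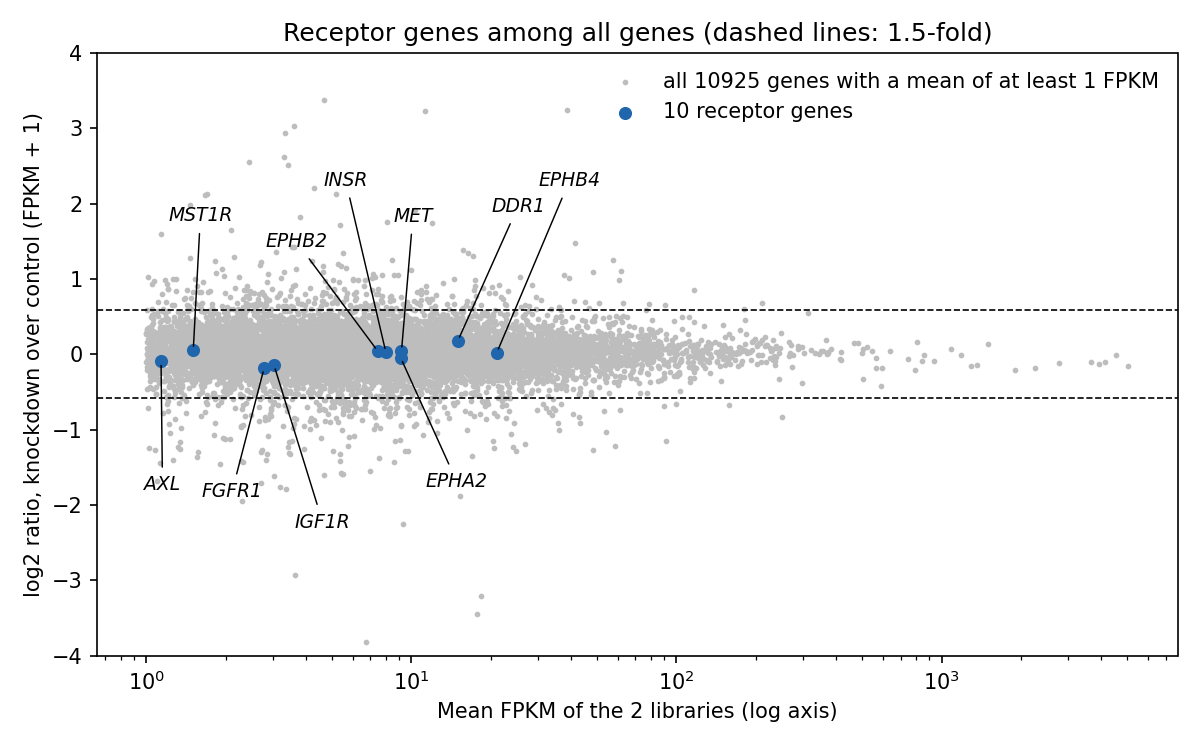
The log2 ratio of knockdown over control on the FPKM + 1 scale against the mean FPKM of the 2 libraries (log axis) for 10925 genes (grey), with the 10 receptors in blue. All 10 lie between -0.18 and 0.18, inside the dashed lines at 1.5-fold.

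The spread that these differences may be read against comes from other genes and from counting. Over all genes the log2 ratio had a spread of 0.21 (a robust SD, scaled from the median absolute deviation), and at the level of each receptor it was 0.18 to 0.25. Every receptor lay within that spread of 0. From the estimated fragments, about 56 and 62 for AXL up to 1018 and 987 for EPHB4, an approximate 95% counting interval of the log2 ratio without the added 1 was computed. It included 0 for 9 of the 10 genes. The exception was DDR1, at 0.19 with an interval from 0.03 to 0.35. For FGFR1 it ran from -0.54 to 0.05, for IGF1R from -0.39 to 0.01 and for MET from -0.11 to 0.20. A difference of 1.5-fold, 0.58 on the log2 scale, lay outside the interval of every receptor except AXL, whose interval ran from -0.69 to 0.35. The intervals of MST1R, from -0.37 to 0.55, and of FGFR1 ended close to that difference. Their widths rest on the estimated depth, so for these genes the result is not firm. These intervals cover counting error only and not the spread between cultures.

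The order of the levels was nearly the same in both libraries. Only MET and EPHA2 exchanged places, with MET ahead in knockdown cells and EPHA2 ahead in control cells. The highest level was 19.8 times the lowest in knockdown cells and 17.3 times in control cells. The receptors fell into steps. EPHB4 stood above DDR1, and DDR1 above MET, EPHA2, INSR and EPHB2, which lay between 7.60 and 9.33 FPKM in knockdown cells and between 7.37 and 9.27 in control cells. IGF1R and FGFR1 followed, and then MST1R and AXL. Within each of the last 3 steps the 95% counting intervals of neighbours overlapped, which held for 5 of the 9 neighbouring pairs in each library. Of the 10 genes, 6, those from EPHB4 down to EPHB2, lay above the median of all listed genes, 5.10 FPKM in knockdown cells and 5.04 in control cells.

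Among all receptor tyrosine kinases the set lay behind EGFR. Of 48 others sought, 24 were listed. EGFR, known for its very high expression in some basal breast cancer lines, was at 258 FPKM in knockdown cells and 336 in control cells, 60.4% and 67.8% of the summed FPKM of the 34 listed receptors. The 10 receptors together summed to 79.1 and 77.3 FPKM, 18.5% and 15.6%. EGFR alone was at 3.27 times that sum in knockdown cells and 4.35 times in control cells. EPHB4 was second after EGFR in both libraries, ahead of PTK7, a pseudokinase of WNT signalling at 18.4 FPKM in each. The other 18 receptors averaging 1 FPKM or more had log2 ratios from -0.58 to 0.66, a wider range than the 10, and a median of 0.05. Of the 18, 1 was past 1.5-fold, where 5.45% of all genes were. That was LMTK3, at 2.39 FPKM in knockdown cells against 1.14 in control cells, a gene that shares exons with another gene. EPHB6, an EPH receptor whose kinase is inactive, was at 4.69 against 7.51 FPKM, ERBB2 had 6.61 against 4.14 FPKM and EPHA1 had 5.57 against 4.02, all short of 1.5-fold on the FPKM + 1 scale. That the range of the 10 is narrower was not tested.

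**Figure D3:**
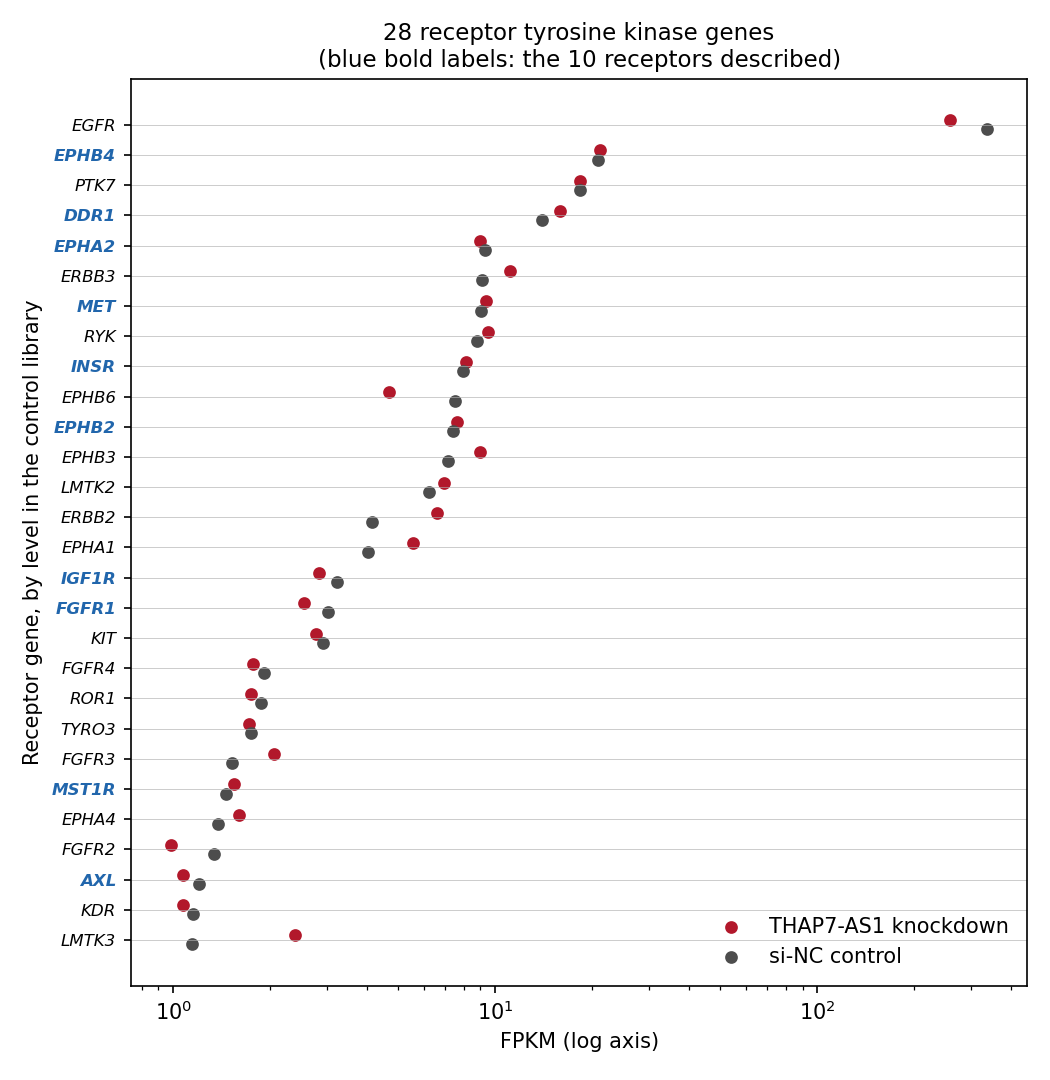
FPKM (log axis) of the 28 receptor tyrosine kinase genes averaging 1 FPKM or more, in knockdown cells (red) and control cells (grey), from the highest control level at the top; blue bold names mark the 10 receptors described. EGFR stands far to the right at 258 and 336 FPKM. The 2 points lie close together for each of the 10 receptors but further apart for several others, LMTK3, EPHB6 and ERBB2 among them.

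Ligands of the receptors were considered next. Of 40 ligand genes sought, 18 were listed and 12 averaged 1 FPKM or more, of which 10 were above 0 and 2 below, with a median log2 ratio of 0.19. Over all genes 53.1% were above 0. Of the 12, 1 was at least 1.5-fold higher, where 2.98% of all genes were, and 0 were that much lower, against 2.46% of all genes. That one was IGF2, a growth factor that signals through IGF1R and the insulin receptor. IGF2 was at 9.81 FPKM in knockdown cells against 4.34 in control cells, a log2 ratio of 1.02, beside log2 ratios of -0.14 for IGF1R and 0.03 for INSR. IGF2 shares exons with the readthrough gene INS-IGF2, so its value is uncertain. The level of IGF2 was 3.46 times that of IGF1R in knockdown cells and 1.34 times in control cells.

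The most abundant ligand genes were ephrins. EFNA1 was at 18.8 FPKM in knockdown cells against 16.5 in control cells, and EFNB2, the main ligand of EPHB4, at 18.8 against 16.3. Of the 7 ephrins listed, 6 had a ratio above 0, against 53.1% of all genes. None reached 1.5-fold, which is near the share of 5.45% over all genes. EFNA3, at 8.13 against 6.23 FPKM, and EFNA4, at 11.5 against 9.16, had the largest ratios, 0.34 and 0.30. Both share exons with the same annotated gene, AL691442.1. EFNA5, at 3.33 against 3.90 FPKM, was the one below 0. Summed ephrin levels were 74.2 FPKM in knockdown cells and 64.5 in control cells, against 59.1 and 58.3 for the 8 listed EPH receptors. EFNB2 stood at 0.887 times the level of EPHB4 in knockdown cells and 0.781 times in control cells.

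Ligands of the other receptors followed. GAS6, the ligand of AXL, was at 2.66 FPKM in knockdown and 2.44 in control cells, 2.49 and 2.03 times the level of AXL, and the related PROS1 was at 0.373 and 0.207. TYRO3, the next receptor of the TAM family, was at 1.72 and 1.74 FPKM and MERTK at 0.201 and 0.130. FGF2 was at 0.712 and 0.896 FPKM and FGF1 at 0.0429 and 0.113, all below 1 FPKM. HGF, MST1, IGF1 and INS are not analysed here. Among collagen chains, the fibrillar chain gene COL1A1 was at 0.866 and 0.874 FPKM, while the basement membrane chain genes COL4A1 and COL4A2 were at 4.63 against 4.15 and 5.95 against 7.83. The ratio of COL4A2, -0.35, was the lowest of the ligand genes.

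Adaptors that dock on active receptors went both ways. Of 31 sought, 27 averaged 1 FPKM or more, with 14 above 0 and 13 below and a median of 0.03. The median size of their log2 ratio, sign ignored, was 0.22, against 0.14 over all genes. Of the 27, 1 was at least 1.5-fold higher and 0 lower, where 2.98% and 2.46% of all genes were. That one was GRB2, the adaptor that links phosphorylated receptors to the RAS activator SOS, at 30.1 FPKM in knockdown cells against 16.4 in control cells, a log2 ratio of 0.84. No annotated gene shares exons with GRB2. Its partner gene SOS1 was at 14.2 against 16.9 FPKM and SOS2 at 5.59 against 5.47. Among the members with the next largest ratios, CRKL had a log2 ratio of -0.42, its relative CRK was at 10.4 against 14.1 FPKM and DOK4 was at 5.31 against 3.81. The insulin receptor substrates IRS1 and IRS2 were at 2.43 against 1.82 and 2.87 against 2.73 FPKM, and FRS2, the docking protein of the FGF receptors, at 2.81 against 3.57. RANBP9, a MET-binding scaffold, was the most abundant at 55.7 against 59.6 FPKM, before PIK3R2, a regulatory subunit of PI3K, at 24.2 against 27.2.

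The next list holds genes that restrain the receptors. Of 33 ubiquitin ligases, phosphatases and other inhibitors sought, 31 averaged 1 FPKM or more, of which 22 were below 0 and 9 above, with a median of -0.13, against 53.1% of all genes above 0 and a median of 0.02. Of the 31, 1 was past 1.5-fold, where 5.45% of all genes were. SOCS3, an inducible inhibitor of cytokine receptors that also binds the insulin receptor, was at 4.48 FPKM in knockdown cells against 7.78 in control cells, a log2 ratio of -0.68. The next largest ratios were those of SPRY1, an inhibitor of signalling from FGF receptors, at 4.38 against 2.62 FPKM, of the receptor phosphatase gene PTPRG at 0.795 against 1.61, and of CBL at 6.27 against 7.90. CBL encodes a ubiquitin ligase that marks MET and other receptors for degradation. PTPRF and the epithelial relative of CBL, CBLC, were the most abundant and close to equal, at 45.8 against 45.5 and 43.4 against 40.1 FPKM. PTPN1, which dephosphorylates the insulin receptor, was at 19.6 against 22.0 FPKM, and PTPRJ, a phosphatase of MET, at 4.77 against 4.0.

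A further list joins proteases that mature receptors and ligands, or cut receptors from the cell, with the inhibitors of such proteases. Of 26 genes sought, 21 averaged 1 FPKM or more, with a median of 0.02. Of the 21, 1 was at least 1.5-fold higher and 2 lower, where 2.98% and 2.46% of all genes were. ADAM15, a membrane metalloprotease, was at 14.0 FPKM in knockdown cells against 5.88 in control cells, a log2 ratio of 1.13, and shares exons with DCST1. TIMP2, an inhibitor of matrix metalloproteases, was at 5.10 against 13.8 FPKM, a log2 ratio of -1.28. It shares exons with CEP295NL, which was at 0.205 and 0.0717 FPKM. PLAU, the urokinase gene, whose product can activate hepatocyte growth factor, was at 4.80 against 10.4 FPKM, a log2 ratio of -0.98. The fourth largest ratio was 0.37 for TMPRSS2, at 7.98 against 5.96 FPKM. The matriptase gene ST14, which also activates hepatocyte growth factor, and the gene of its inhibitor SPINT1 were abundant and close to equal, at 46.9 against 46.0 and 42.9 against 41.4 FPKM. FURIN, the convertase that cuts the precursors of MET, INSR and IGF1R, was at 7.40 against 7.90 FPKM, and ADAM10, a protease that sheds receptor ectodomains, at 6.38 against 6.25.

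Co-receptors and binding proteins gave 1 gene past 1.5-fold among 26 averaging 1 FPKM or more, of 35 sought, where 5.45% of all genes were past it. Of the 26, 12 were above 0 and 14 below, with a median of -0.06. IGFBP5, which binds insulin-like growth factors, was at 52.7 FPKM in knockdown cells against 25.7 in control cells, a log2 ratio of 1.01. IGFBP4 was at 34.3 against 26.8 FPKM, and IGFBP3, the most abundant of the list by its mean, at 162 against 180. The chaperone gene HSP90B1 was at 163 against 171 FPKM. IGF2R, which clears IGF2 from outside the cell, was at 15.3 against 13.3 FPKM. PLXNB3, at 4.09 against 2.75 FPKM, and NRP1, at 0.934 against 1.58, followed by size of ratio. Of the membrane partners of MET, CD44 was at 67.4 against 73.5 FPKM and PLXNB1 at 4.89 against 4.74.

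**Figure D4:**
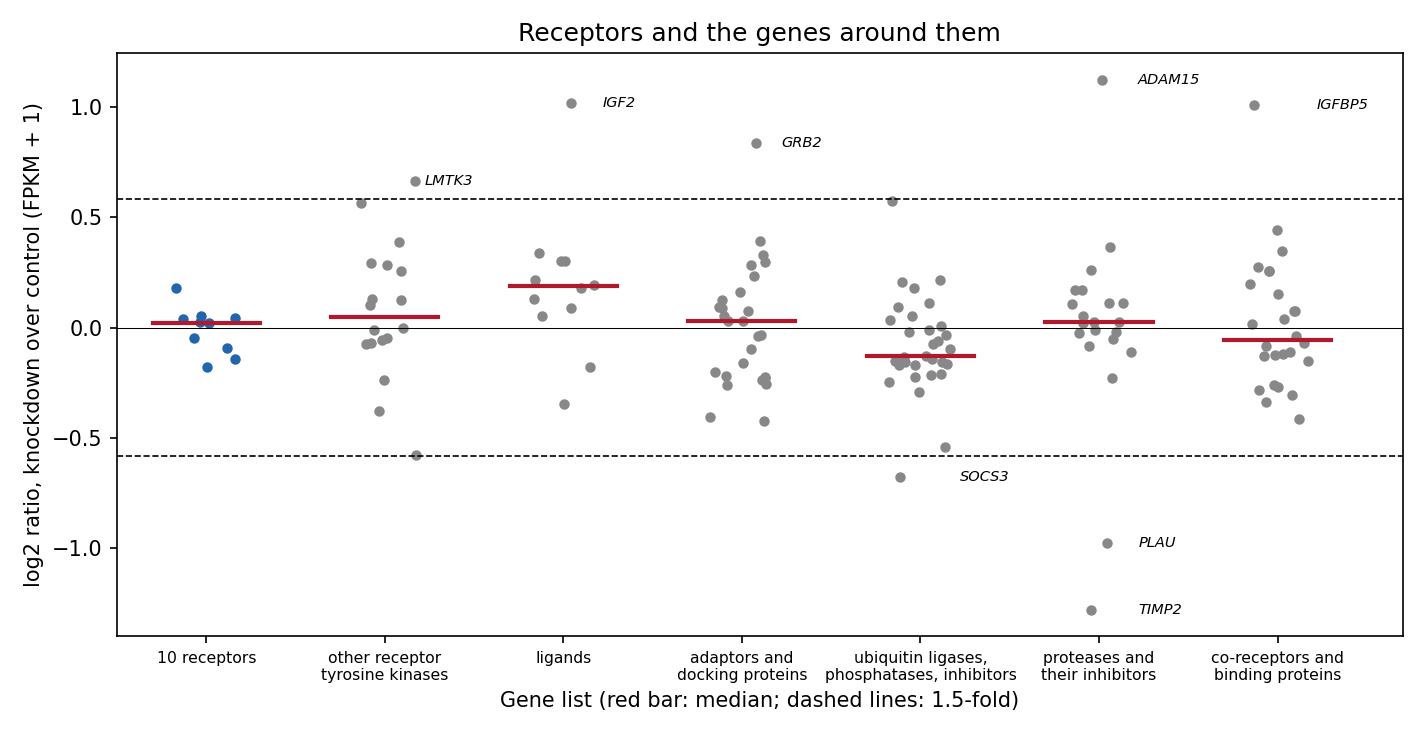
The log2 ratio of knockdown over control on the FPKM + 1 scale for the 10 receptors (blue) and for genes of 6 related lists (grey) averaging 1 FPKM or more, with the median of each list as a red bar and dashed lines at 1.5-fold. The 10 receptors lie closest around 0, the ligands have the highest median at 0.19, and the genes past the lines are named.

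Promoter sequence was examined as a property on which the choice of genes did not rest. RefSeq start sites (GRCh38.p14) gave 18 windows of 250 bases before to 50 after the start for 9 of the genes, all but FGFR1. The GC box GGGCGG, on either strand, was in 13 of the 18 windows, 72.2%, against 67.9% of the windows of genes averaging 1 FPKM or more and 45.0% of all windows. DDR1 had the most windows, and most of those without the box were its own. Each of the 9 genes had the box in at least 1 window. The TATA box TATAAA, on either strand, was in 0 of the 18, against 5.86% and 11.5%. An AP-1 motif, TGANTCA, which reads alike on both strands, was in 1 window, of DDR1, against 4.87% and 7.71%. Start sites of 1 gene overlap or lie near one another, so the windows are not independent.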

How the data were processed

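The 2 RNA sequencing libraries of total RNA were compared, 1 per group. Per the submitters' processing notes the authors used cutadapt, HISAT2 2.0.5 and StringTie on the build hg19. Other versions, annotation and strandedness were not given in the sources used here. The deposited unit is FPKM per gene, 1 value per library, per the file headers. A symbol was found for 12746 of 13017 genes. Gene models of GENCODE release 29, which describes another build, were used by identifier only, for lengths, exon overlap and sequence, and no coordinates are given.

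The log2 ratio is log2((knockdown FPKM + 1)/(control FPKM + 1)), so the change of low genes is understated. Genes averaging 1 FPKM or more were kept, 10925 in all, and 1.5-fold replaced a test. Named genes are the 10 receptors, and from each list the 4 largest ratios and the 2 most abundant genes; further list members known as partners of a receptor were named after their values had been seen. The receptors and lists were chosen with earlier results of these data known. Lists count members only and were not tested.

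Depth was estimated from genes with a single annotated transcript. Of their values times length, those between 85 and 95 were taken, a window set after the values had been seen. The medians were 89.9 in the knockdown library (13 genes) and 91.4 in the control library (10 genes), and the window bounds both. Taken as 1 fragment, these medians gave the estimated fragments and the counting intervals (95%, Poisson for levels, normal approximation for ratios), reckoned on the principal transcript. The fold rule was run on simulated data with counting error only, as a check of the code. That run holds no spread between cultures. Python 3.11.15, numpy 2.4.6, pandas 2.3.3, Biopython 1.88 and matplotlib 3.10.9 were used. Alternatives changed the pseudocount, filter, scaling, fold and gene set.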

Additional observations from a re-analysis of the deposited data

How the results depend on the processing

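The count of receptors at least 1.5-fold apart was 0 under all alternatives. For 2-fold, a pseudocount of 5, the filters and the gene set, that count was fixed by the main result. They raise the fold, shrink the ratios or leave each ratio as it was. Only a pseudocount of 0.1 and the changes of scaling could have given another count. The order of the receptors could not change under any alternative, since each keeps the order of genes within a library or drops genes. Each receptor kept its sign under the 8 or 9 alternatives that gave a value, from -0.24 to -0.09 for FGFR1 and from 0.14 to 0.19 for DDR1. A change of pseudocount, filter or gene set cannot turn a sign, so only the changes of scaling could have done so. EPHB4 came nearest to 0, at 0.003 when rescaled without the 100 most abundant and the mitochondrially encoded genes. At a minimum mean of 5 FPKM there was no value for AXL, MST1R, IGF1R and FGFR1, and without genes sharing exons none for DDR1. The mean log2 ratio of the receptors was -0.010, beside a median of 0.023. Over all genes, 326 were 1.5-fold higher and 269 lower. A pseudocount of 0.1 gave 547 and 405, one of 5 gave 88 and 96, a minimum mean of 5 FPKM gave 168 and 161, and 2-fold gave 66 and 73; scaling to 1000000 per library gave 505 and 382. By construction, a pseudocount of 1 is smaller against scaled values. The median of adaptors, 0.03, was -0.07 at a minimum mean of 5 FPKM, and that of other receptors, 0.05, was -0.01 without genes sharing exons. That of ligands, 0.19, was 0.109 with no filter, 0.117 with a pseudocount of 5 and 0.129 without genes sharing exons. That of inhibitors, -0.13, was -0.064 with a pseudocount of 5. No paired analysis was possible because each group has 1 library. Depth limits AXL and MST1R most, and no alternative measures the spread between cultures.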
